A study of Mus musculus with 4 samples.

Results

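The maternal and the paternal genome of Ezh2m+/p+ mouse zygotes were compared gene by gene through their H3K27me2 peaks. All peaks of the deposited maternal list and of the deposited paternal list of these zygotes were taken, 5744 and 17863, which made 23607 of the 56036 peaks in the 4 lists of the series. Each peak carried the gene whose transcription start lay nearest to it. The 23607 peaks named 7827 genes, out of 11472 genes named in all 4 lists.

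H3K27me2 is placed on histone H3 by Polycomb repressive complex 2, whose catalytic subunit is EZH2 or EZH1, and it is a mark of chromatin in which genes are not transcribed. After fertilization the oocyte and sperm genomes lie in separate pronuclei. The maternal one enters with histones and their marks from the oocyte, whereas the paternal one is repackaged from protamines onto new histones.

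Ezh2m+/p+ zygotes were produced by in vitro fertilization from Ezh2 fl/fl females (C57BL/6J) without Gdf9-Cre and PWK/PhJ sperm, so the floxed allele was also carried by these controls. A pool of 300 zygotes at the PN5 stage, without polar bodies, gave 1 H3K27me2 library and 1 input by ultra-low-input native ChIP-seq. Ezh2m-/p+ zygotes, from Ezh2 fl/fl mothers whose oocytes deleted Ezh2 through Gdf9-Cre, gave another such pair of libraries and served as a point of reference only. The lists are named here by their labels. Their peak numbers are those the study gives for the same genotypes, whereas the category shares in its published panels match the lists of the opposite genotype.

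Both parental lists came from a single library whose reads had been split by strain variants, so they are not independent samples, and without replicates no test was made. Intervals are 95% Wilson intervals and cover counting error only. Reads of the maternal genome covered a median of 25.0% of a chromosome and reads of the paternal genome 2.18%. The fold of a peak is its H3K27me2 reads over input reads, and whether the input was also split by parental genome is not given in the sources used here. The 5744 maternal peaks had 180 distinct folds with a median of 7.37, and the 17863 paternal peaks had 471 with a median of 36.1, the value that 18.8% of the paternal peaks shared. Folds are therefore given for each genome on its own scale. The 10 commonest folds held 40.3% of the maternal and 68.9% of the paternal peaks. How far a large fold rests on few input reads was not tested. A limit of 10 on the fold, used as an alternative, kept 40.5% of the maternal and 83.9% of the paternal peaks.

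The sequences of 5 stretches show what kind of DNA the lists hold. They are the centre of the peak with the largest fold and of the peak at the median GC content of each list, and the centre of the longest stretch covered by peaks of both genomes. Each is 300 bases of the plus strand of GRCm38 (mm10), and capitals mark CpG dinucleotides.
Maternal, largest fold, chr6:127271751-127272050: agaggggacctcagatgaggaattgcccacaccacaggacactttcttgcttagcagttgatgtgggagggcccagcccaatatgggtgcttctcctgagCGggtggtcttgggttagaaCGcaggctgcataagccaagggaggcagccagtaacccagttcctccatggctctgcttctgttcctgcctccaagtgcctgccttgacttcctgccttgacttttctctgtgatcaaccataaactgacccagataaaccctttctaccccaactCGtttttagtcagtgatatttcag
Maternal, median GC content, chr2:18321951-18322250: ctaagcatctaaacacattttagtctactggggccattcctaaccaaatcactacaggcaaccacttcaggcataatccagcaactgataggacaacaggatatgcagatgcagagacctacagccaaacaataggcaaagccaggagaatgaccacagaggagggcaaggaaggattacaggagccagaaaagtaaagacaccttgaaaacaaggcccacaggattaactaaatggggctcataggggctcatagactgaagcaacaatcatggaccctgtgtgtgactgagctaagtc
Paternal, largest fold, chr1:192212051-192212350: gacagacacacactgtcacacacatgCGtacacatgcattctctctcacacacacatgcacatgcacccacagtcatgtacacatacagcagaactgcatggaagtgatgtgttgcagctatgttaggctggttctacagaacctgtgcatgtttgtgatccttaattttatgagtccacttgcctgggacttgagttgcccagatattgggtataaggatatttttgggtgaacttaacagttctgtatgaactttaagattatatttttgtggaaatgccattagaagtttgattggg
Paternal, median GC content, chr11:64511351-64511650: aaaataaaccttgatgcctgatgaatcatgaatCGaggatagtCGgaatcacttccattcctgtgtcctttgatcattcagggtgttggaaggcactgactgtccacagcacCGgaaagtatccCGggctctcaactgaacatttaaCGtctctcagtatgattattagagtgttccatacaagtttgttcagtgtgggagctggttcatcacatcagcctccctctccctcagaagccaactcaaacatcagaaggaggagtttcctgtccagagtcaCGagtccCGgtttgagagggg
Both genomes, longest overlap, chr11:74574251-74574550: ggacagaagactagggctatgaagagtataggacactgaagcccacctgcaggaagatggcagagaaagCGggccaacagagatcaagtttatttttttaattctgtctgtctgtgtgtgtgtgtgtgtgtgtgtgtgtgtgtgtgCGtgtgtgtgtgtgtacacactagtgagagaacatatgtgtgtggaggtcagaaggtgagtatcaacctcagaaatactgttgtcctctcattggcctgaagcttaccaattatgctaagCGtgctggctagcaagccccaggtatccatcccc
The first lies in an intergenic peak whose nearest gene was Gm38404 and holds 3 CpG. The second, annotated to the first intron of a transcript nearest to Dnajc1, holds 0. The stretch of the strongest paternal peak, annotated to a first intron near Kcnh1, holds 1 CpG, and the paternal peak at the median GC content, near F930015N05Rik, holds 7. The stretch shared by both genomes was annotated to the first intron near Rap1gap2 and holds 3.

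Peaks of both genomes lay in DNA of similar composition. Median GC content was 45.5% (quartiles 43.2 and 48.1) in maternal peaks and 44.7% (41.5 and 48.2) in paternal peaks, against 41.8% over chromosomes 1 to 19 and X. The paternal list was wider at the low end, with 15.3% of its peaks under 40% GC against 4.42% of the maternal peaks. Repeats made up a median of 20.3% of a maternal peak and 20.9% of a paternal peak, compared with 34.3% of those chromosomes. Maternal peaks were longer, with a median of 2999 bp against 1799 bp. Promoter peaks within 1 kb of a start were the richest in GC among the groups of peaks compared, with medians of 47.9% for the 536 maternal and 49.1% for the 1884 paternal peaks.

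Most genes with a peak had it in 1 parental genome only. Of the 7827 genes with a peak, 2670 (34.1%, 33.1 to 35.2%) had maternal peaks only, 4157 (53.1%, 52.0 to 54.2%) had paternal peaks only and 1000 (12.8%, 12.1 to 13.5%) had peaks of both genomes. Thus 27.2% (25.8 to 28.7%) of the 3670 genes with a maternal peak also had a paternal one, and 19.4% (18.3 to 20.5%) of the 5157 genes with a paternal peak also had a maternal one. When the paternal list was reduced to its 5744 peaks of largest fold, the first share was 15.7%, and 10.7% of all protein-coding genes had a paternal peak. Peaks of equal fold were taken in the order of chromosome name and start. Over all 21631 protein-coding genes, 14.6% had a maternal peak and 20.3% a paternal peak; 10.6% had maternal peaks only, 16.3% paternal peaks only and 3.98% peaks of both. Over peaks at all positions, a paternal peak was thus more frequent at genes with a maternal peak than at all protein-coding genes, and this moved with gene length. Among promoter peaks alone the order was opposite, as given below.

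The makeup of the sets by type of gene was alike. Protein-coding genes formed 86.1% of the maternal-only, 84.9% of the paternal-only and 86.0% of the shared genes, and lncRNA genes 10.4%, 10.5% and 10.9%. The sets differed in gene length. Protein-coding genes with peaks of both genomes had a median length of 81.3 kb, those with maternal peaks only 39.8 kb, those with paternal peaks only 25.2 kb, and those with neither 13.2 kb.

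The share of genes with a peak rose with gene length in both lists. When protein-coding genes were divided by length into 5 equal groups, 4.67% of the shortest had a maternal and 11.8% a paternal peak, whereas among the longest the shares were 33.0% and 35.3%. Peaks of both genomes were at 0.878% of the shortest and 11.9% of the longest genes. In the longest group, 36.0% (33.6 to 38.5%) of the 1427 genes with a maternal peak also had a paternal one, next to 35.3% of all genes of that length. In the next-longest group these shares were 20.9% (18 to 24%) and 21.1%, so that in both a paternal peak was about as frequent at genes with a maternal peak as at all genes of that length. In the shortest group the shares were 18.8% (14 to 24.8%) of 202 genes and 11.8%.

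**Figure D1:**
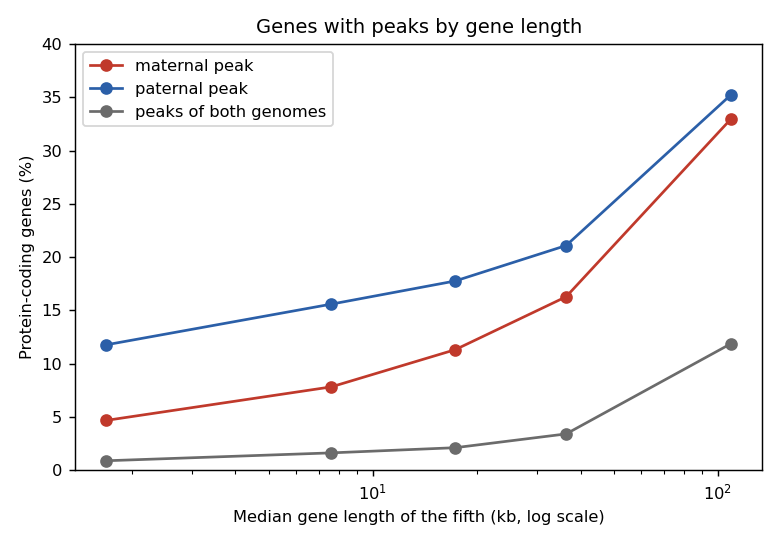
Share of protein-coding genes (%) with a maternal peak, a paternal peak or peaks of both genomes, against the median gene length (kb, log scale) of each of 5 equal groups of genes. The paternal share lies above the maternal one at every length and the gap is smallest in the longest group (33.0% and 35.3%).

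Genes with peaks of both genomes rarely held them at the same place. The shortest distance between a maternal and a paternal peak of the same gene had a median of 25.2 kb (quartiles 9.20 and 60.7 kb) over the 1000 genes, and it was at most 1 kb in 66 genes (6.6%) and at most 10 kb in 270 genes (27%). Only 24 of the 5744 maternal peaks (0.418%, 0.281 to 0.621%) overlapped a paternal peak by at least 1 bp, and 25 of the 17863 paternal peaks (0.140%, 0.0948 to 0.207%) overlapped a maternal one. These 25 overlaps measured 199 to 1599 bp, with a median of 599 bp. By comparison, 34 of the maternal peaks (0.592%, 0.424 to 0.826%) overlapped a paternal peak of Ezh2m-/p+ zygotes and 544 (9.47%, 8.74 to 10.3%) a maternal one, so maternal positions seldom recurred even in the other maternal list. Of the paternal peaks, 66.1% (65.4 to 66.8%) overlapped a paternal peak there. The shares that peaks placed at random would give were not computed, so none of these overlap shares has such a reference.

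The longest overlaps, 1599 bp each, lay near Methig1 and near Rap1gap2, which encodes a GTPase-activating protein for Rap1. At Methig1 the maternal fold was 5.61 and the paternal fold 25.6, and at Rap1gap2 they were 6.03 and 108. Overlaps of 1199 bp lay near the forkhead gene Foxd2, the ubiquitin ligase gene Trim11 and Tspoap1. Other overlapping pairs included those near Tmem121, where there were 2, and near Tmprss12, Tslp, Ube2e1, Bach2, Cobl, Stxbp5, Ehf, Shank2, Zfat, Stk3, Tbc1d2, Pde6a, Mir6244, 1110051M20Rik and 4930557J02Rik. Trim11 also had 2. In 1 pair the maternal peak was nearest to Vill and the paternal peak to Plcd1.

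Promoter peaks were found at fewer genes in both lists. Within 3 kb of a start, 798 genes had maternal peaks only, 2048 paternal peaks only and 55 peaks of both, so that 6.45% (4.99 to 8.30%) of the genes with a maternal promoter peak also had a paternal one. Over all protein-coding genes, 3.64% had a maternal and 8.77% a paternal promoter peak. A paternal promoter peak was thus less frequent at genes with a maternal one than at all protein-coding genes. Over all peaks the order was opposite, 27.2% and 20.3%. Of the 1000 genes with peaks of both genomes, 630 had a promoter peak of neither, 107 had only the maternal peak at the promoter and 208 only the paternal one. The strongest maternal promoter peaks within 1 kb were those of Ccdc162 (fold 99.2), Parp11 (91.1), Phf21a (85.8), Celf2 (84.4) and Tmem63a (80.4), all genes without a paternal peak. The strongest paternal ones were those of Styk1 (fold 373), 4930402H24Rik (331), Peli2 (325), Gm14057 (301) and Mybpc3 (295). Among these only 4930402H24Rik had a maternal peak, 1 against 23 paternal peaks. Peaks of the other genome were infrequent in general, at 27.2% of all genes with a maternal peak and 19.4% of those with a paternal one.

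Genes held more paternal than maternal peaks. A gene with a maternal peak had a mean of 1.57 of them and a median of 1, and 68.7% of the 3670 genes had a single peak. A gene with a paternal peak had a mean of 3.46 and a median of 2, and 43.1% of the 5157 genes had a single peak. At least 10 peaks were found at 12 genes in the maternal list and at 319 genes in the paternal list, where they held 36.3% of all peaks. The mean paternal number was 2.11 in the list reduced to 5744 peaks, against 1.57 in the maternal list of that size.

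**Figure D2:**
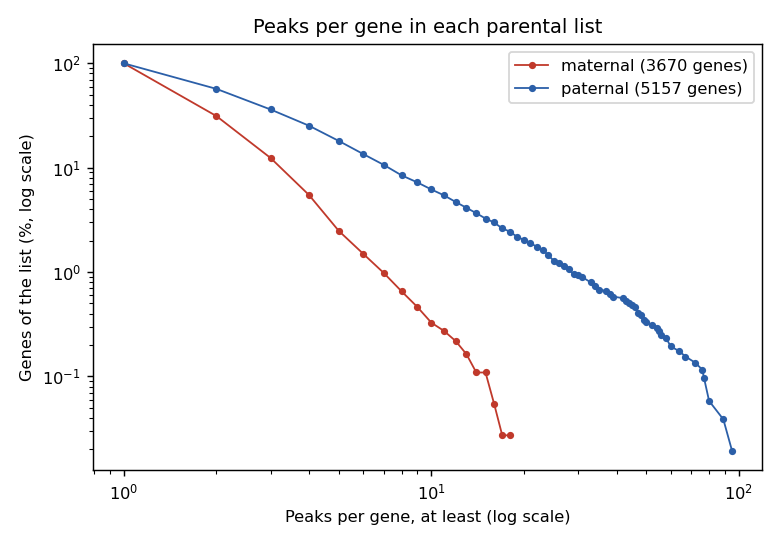
Share of the genes of each list (%, log scale) that had at least the number of peaks on the x axis (log scale), with 3670 genes in the maternal and 5157 in the paternal list. The maternal curve ends at 18 peaks and the paternal curve at 95.

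Among protein-coding genes with maternal peaks only, the highest numbers were 15 at Hao1, which encodes hydroxyacid oxidase of liver peroxisomes, 13 at the RNA-binding protein gene Celf2, 12 at Reln, the gene of the extracellular guidance protein reelin, and 12 at Cdkal1, a tRNA-modifying enzyme. Dennd1a had 10 peaks, and the scaffold gene Magi2, the receptor phosphatase gene Ptprg and the arginine sensor gene Castor2 had 9 each. The peaks of Reln, Cdkal1, Dennd1a, Magi2 and Ptprg all touched the body of the gene. In contrast, 2 of the 15 at Hao1 and 0 of the 9 at Castor2 did, with median distances to the start of 370 and 391 kb, so these numbers describe the intervals beside the genes.

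The largest maternal folds at protein-coding genes without a paternal peak belonged to Syt13, a synaptotagmin gene, at 122, the alpha-1D adrenergic receptor gene Adra1d at 113, Ccdc162 at 99.2, the mitochondrial calcium uniporter gene Mcu at 97.8 and the lens crystallin gene Cryba1 at 93.8. Syt13 and Adra1d had 4 maternal peaks each and Cryba1 had 1. The Cryba1 peak was 6399 bp long and lay 3.12 kb from the start. None of the 4 peaks of Adra1d touched the gene, the nearest being 86.1 kb from its start.

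Among protein-coding genes with paternal peaks only, Rabgap1l, a regulator of Rab GTPases, had 95 peaks, of which 88 touched the gene body and which together covered 230 kb. The receptor phosphatase gene Ptprd had 89, the ankyrin gene Ank2 80, the latrophilin gene Adgrl2 77, Nap1l3 77, Dad1 76, the G protein regulator gene Rgs7 72 and the tenascin gene Tnr 67. Dense paternal runs inside long genes were thus joined by runs beside short ones. Nap1l3 on chromosome X is 2.83 kb long, and 1 of its 77 peaks touched it, at a median distance of 349 kb. At Dad1, which lies next to the T cell receptor alpha locus, 3 of 76 did, at a median distance of 249 kb.

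The largest paternal folds at protein-coding genes without a maternal peak were 518 at the potassium channel gene Kcnh1, 506 at the centrosomal gene Cep350, 457 at Fam163a, 433 at Spata17 and 427 at the serotonin receptor gene Htr1d. Kcnh1, Cep350, Fam163a and Spata17 lie on chromosome 1. Kcnh1 had 27 paternal peaks with folds from 6.02 to 518 and a median of 36.1. Cep350 had 21 with a median fold of 21.8.

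Tns3, which encodes the adhesion protein tensin 3, had the most peaks of both genomes, 18 maternal and 14 paternal. The next were Rbms3 with 16 and 10, Arhgap26 with 9 and 12, the actin nucleator gene Cobl with 13 and 7, Asap1 with 7 and 8, the DNA repair gene Babam2 with 8 and 7, the B cell transcription factor gene Ebf1 with 7 and 7, and the potassium channel partner gene Dpp6 with 6 and 6. At Tns3 and Rbms3 peaks of both genomes lay on both sides of a start. At Tns3 the maternal peaks reached to 479 kb and the paternal peaks to 490 kb from the start, with medians of 238 and 59.5 kb. At Dpp6 the maternal peaks lay within 24.2 kb of a start, at a median of 15.3 kb, and the paternal ones at a median of 81.7 kb. At Cobl 8 of 13 maternal and 2 of 7 paternal peaks touched the gene, and 1 pair overlapped by 799 bp.

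**Figure D3:**
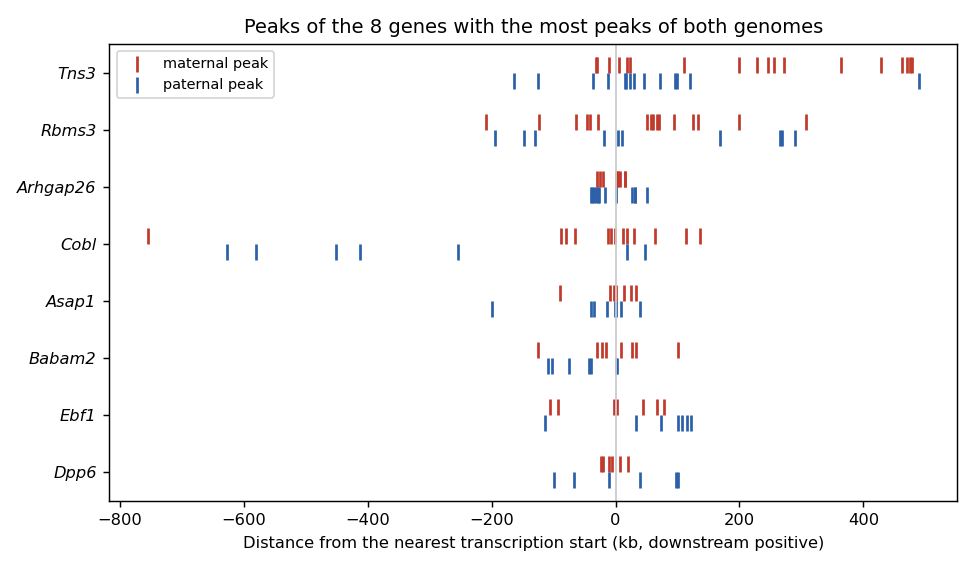
Position of every peak (1 tick each) of the 8 genes with the most peaks of both genomes, as distance to the nearest start in kb with downstream positive; a gene with several starts can have peaks measured from different ones. At Tns3, 18 maternal and 14 paternal peaks are spread over both sides of the start.

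A gene's neighbours were of its own set more often than protein-coding genes at large. Of the 4598 neighbours of protein-coding genes with maternal peaks only, 26.8% had maternal peaks only, 6.98% paternal peaks only and 61.5% neither, against 10.6% and 16.3% of all protein-coding genes. Of the 7051 neighbours of genes with paternal peaks only, 46.0% had paternal peaks only, 4.55% maternal peaks only and 42.5% neither. One peak can lie between neighbours, but each peak was given to 1 gene. The longest series of adjacent genes with paternal peaks only held 24 genes on chromosome 1, from the homeobox gene Lhx4 to Tnr, with 552 peaks. Series of 23 genes from Kcnj10 to Aim2 on chromosome 1 and of 20 genes from Pla2g2c to Aldh4a1 on chromosome 4 followed, with 120 and 91 peaks. The longest maternal-only series were of 7 genes, from Vldlr to 4430402I18Rik on chromosome 19 with 16 peaks and from Otud1 to Myo3a on chromosome 2 with 24.

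By chromosome, the paternal share of protein-coding genes was higher on 16 of 20 chromosomes and the maternal share on chromosomes 2, 9, 10 and 16. On chromosomes 2 and 9 the shares were nearly equal, 18.7% maternal and 18.5% paternal on the former and 18.2% and 18.1% on the latter. On chromosome 16, 15.6% (13.1 to 18.5%) of genes had a maternal and 11.0% (8.90 to 13.6%) a paternal peak. On chromosome 8 the order was opposite and the gap wide, with 8.15% (6.64 to 9.97%) and 23.3% (20.8 to 26.0%). Chromosome X was lowest in both, at 3.31% and 8.07%, and only a zygote fertilized by an X-bearing sperm has a paternal X. Paternal read coverage moved with these shares. It was lowest among autosomes on chromosomes 16 (1.10%) and 10 (1.25%), which had the lowest paternal shares of the autosomes, 11.0% and 10.3%. Coverage was highest on chromosomes 4 (4.03%) and 1 (3.47%), whose paternal shares were 28.5% and 28.2%, while chromosome 18 had the highest shares of both genomes, 22.1% and 30.7%, at a coverage of 2.29%. Its part in the chromosome pattern was not tested.

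**Figure D4:**
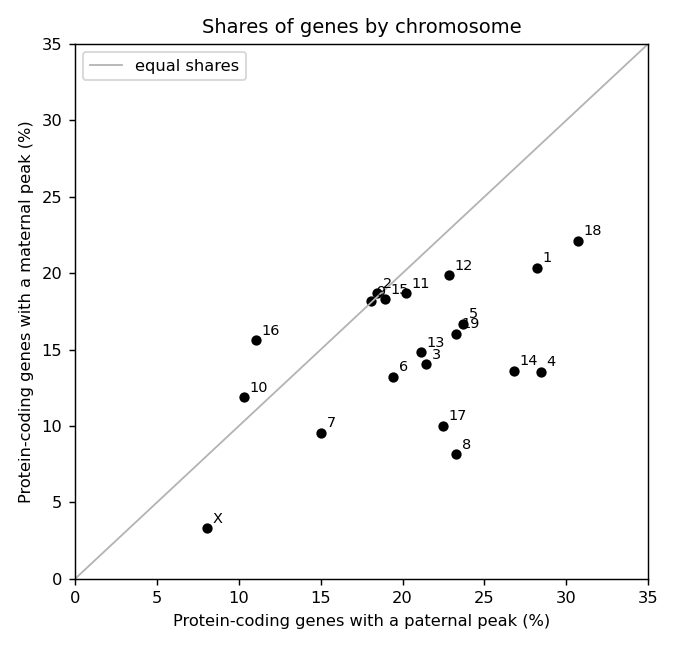
Share of the protein-coding genes of each chromosome (labelled points, chromosomes 1 to 19 and X) with a paternal peak (x axis, %) and with a maternal peak (y axis, %), with a line of equal shares. Chromosomes 16 and 10 lie above the line, 2 and 9 close to it, and the other 16 below it.

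Gene classes were counted by their members with a peak in each list and read against the 14.6% and 20.3% of all protein-coding genes. Because the lists differ in size, the order of the raw shares depends on the limits put on peaks, which act unequally on the lists. With folds over 10 only, 7.34% of all protein-coding genes had a maternal and 18.7% a paternal peak, with peaks over 2000 bp only 12.1% and 9.81%, and with lists of equal size 14.6% and 10.7%. Raw orders under these limits are therefore to be read beside these shares of all genes. Of 29 classes, 20 had the higher share in the paternal list, 7 in the maternal list and 2 neither, whereas with lists of equal size 7 were higher in the paternal and 19 in the maternal list. Shares relative to those of all protein-coding genes in the same list kept their order in 26 of the 27 classes that had a peak with lists of equal size, in 25 with peaks over 2000 bp only, in 24 with folds over 10 only and in 24 without distal intergenic peaks. The raw paternal share was the higher one under each of these 4 alternatives for olfactory and vomeronasal receptors, Zfp genes, keratins, cadherins and oocyte genes.

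Olfactory receptor genes, which encode the odorant receptors of the nasal epithelium, seldom carried maternal peaks. Of 1108 genes, 147 (13.3%, 11.4 to 15.4%) had a paternal peak, 20 (1.81%, 1.17 to 2.77%) a maternal peak and 0 both, which allows a share of up to 0.271%. These shares were 0.654 and 0.124 times those of all protein-coding genes. In the shortest group of protein-coding genes, to which their median length of 0.95 kb belongs, 11.8% had a paternal and 4.67% a maternal peak, so the paternal share was near that of genes of this length. Chromosome 2 had the most receptors with a paternal peak, 40 of 286 (14%), but on chromosome 14 they were 35 of 39 (89.7%), which held 121 of the 283 paternal peaks, and 0 had a maternal peak. Without chromosome 14, 112 of 1069 genes (10.5%, 8.78 to 12.5%) had a paternal and 20 (1.87%, 1.21 to 2.87%) a maternal peak. Olfr1507 had 21 paternal peaks, Olfr1408, Olfr16 and Olfr731 had 7 each, and the maternal list had no peak at any of them. Vomeronasal receptors, which detect pheromones, were low in both lists, with 16 of 353 (4.53%, 2.81 to 7.24%) paternal and 4 (1.13%, 0.442 to 2.88%) maternal. Vmn1r67 and Vmn1r66, with 9 and 8 paternal peaks, and Vmn2r89 with 5 led this class. Some members of these families are close copies of each other, and how reads were assigned between copies was not tested.

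Keratins, the intermediate filaments of epithelia, and zinc finger genes named Zfp, many of which encode repressors of transposons, had maternal shares below that of all protein-coding genes. Of 49 keratin genes, 14 (28.6%, 17.8 to 42.4%) had a paternal peak and 1 (2.04%, 0.361 to 10.7%) a maternal peak. These shares were 1.41 and 0.140 times those of all protein-coding genes, and the paternal interval holds their 20.3%. In the next-shortest group of genes, to which the keratin median of 7.42 kb belongs, 7.81% had a maternal and 15.6% a paternal peak, and the maternal interval of keratins holds the former. Krt82 had 3 paternal peaks and Krt19 and Krt2 had 2 each. Of 397 Zfp genes, 71 (17.9%, 14.4 to 22%) had a paternal and 27 (6.80%, 4.72 to 9.71%) a maternal peak, 0.882 and 0.466 times the shares of all protein-coding genes. Their paternal share was that of protein-coding genes of the middle length group (17.8%, with 11.3% maternal), where their median of 18 kb lies. Zfp536 had 19 paternal peaks, Zfp619 12 and Zfp462 11, none with a maternal peak, whereas Zfp608 had 11 paternal and 2 maternal peaks. Among cadherins and protocadherins, the cell adhesion molecules, 25 of 92 (27.2%, 19.1 to 37.0%) had a paternal and 10 (10.9%, 6.01 to 18.9%) a maternal peak. In the longest group of genes, to which their median of 96.2 kb belongs, the shares were 35.3%, which the paternal interval holds, and 33.0%, which lies above the maternal interval. Pcdh11x had 54 paternal peaks, Cdh6 and Pcdh18 11 each and Cdh7 8. The paternal share of these 3 classes was higher than the maternal share under each of the 4 alternatives.

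On the maternal side, G protein-coupled receptors named Gpr, many of them orphans when named, had a maternal peak in 20 of 70 genes (28.6%, 19.3 to 40.1%) and a paternal one in 11 (15.7%, 9.01 to 26.0%). Maternal peaks were found at Gpr6 (4) and Gpr158 (3), among others, and Gpr39 alone held 31 of the 50 paternal peaks. Of 378 solute carriers, the membrane transporters, 88 (23.3%, 19.3 to 27.8%) had a maternal and 75 (19.8%, 16.1 to 24.2%) a paternal peak. Slc4a3, a bicarbonate exchanger gene, had 9 maternal peaks, and Slc35f4 and Slc6a15 had 42 and 21 paternal peaks. Potassium channels had similar raw shares, 34.0% (25.3 to 44.1%) maternal and 33.0% (24.3 to 43.0%) paternal of 94 genes, which were 2.33 and 1.63 times those of all protein-coding genes. Kcnh1 had 27 and Kcnk2 15 paternal peaks, and Kcne4 had 3 maternal and 14 paternal. In the middle length group, which holds the Gpr median of 12.3 kb, 11.3% of protein-coding genes had a maternal and 17.8% a paternal peak. In the next-longest group, which holds the medians of solute carriers (29.6 kb) and potassium channels (32.7 kb), these were 16.3% and 21.1%. The maternal intervals of the 3 classes lie above these maternal shares. With folds over 10 only, the raw shares were 11.4% maternal and 15.7% paternal for Gpr receptors, 8.99% and 18.5% for solute carriers and 21.3% and 29.8% for potassium channels, and with lists of equal size they were 28.6% and 5.71%, 23.3% and 11.1%, and 34.0% and 21.3%. The raw order also turned without distal intergenic peaks for solute carriers (15.9% and 16.4%) and potassium channels (23.4% and 26.6%). Relative to all protein-coding genes in the same list, the maternal share of these 3 classes was the higher one under each of the 4 alternatives, with folds over 10 only at 1.56 and 0.842 times for Gpr receptors, 1.23 and 0.992 times for solute carriers and 2.90 and 1.60 times for potassium channels.

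**Figure D5:**
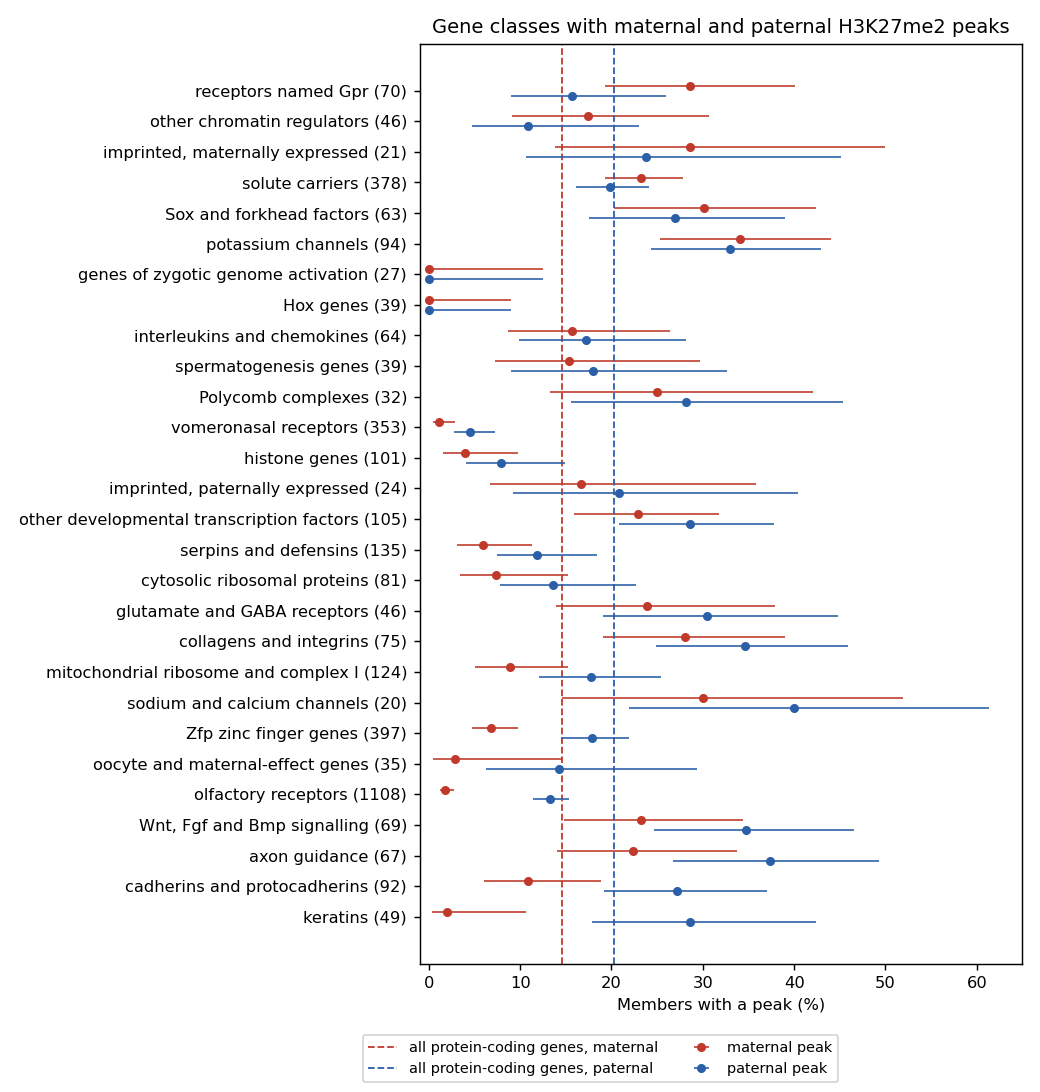
Share of the members of each class (%, points with 95% Wilson intervals for counting error, number of genes in brackets, classes of 20 genes or more) with a maternal or a paternal peak, ordered by the difference; dashed lines mark all protein-coding genes (14.6% and 20.3%). Keratins (2.04% and 28.6%) stand at the paternal end and receptors named Gpr (28.6% and 15.7%) at the maternal end.

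Developmental regulators included families with and without peaks. Of 63 Sox and forkhead factors, 19 (30.2%, 20.2 to 42.4%) had a maternal and 17 (27%, 17.6 to 39.0%) a paternal peak, and 8 had both, among them Foxc1 (2 maternal, 7 paternal), Foxa2 (1 and 6) and Foxp4 (1 and 6). Sox11 and Sox6 had paternal peaks only, 16 and 12. The raw order of this class turned with folds over 10 only (17.5% maternal, 27% paternal) and without distal intergenic peaks (14.3% and 15.9%), whereas relative to all protein-coding genes the maternal share stayed the higher one in both (2.38 and 1.45 times, 1.32 and 0.993 times). Of 105 other developmental transcription factors, 22.9% (15.9 to 31.8%) had a maternal and 28.6% (20.8 to 37.8%) a paternal peak, and 60 had neither. Without distal intergenic peaks their shares were 8.57% and 14.3%, which were 0.794 and 0.894 times those of all protein-coding genes. The head organizer gene Otx2 had 25 paternal peaks, the muscle stem cell gene Pax7 20, Hand1 19 and Emx2 11. None of them had a maternal peak, which 14.6% of all protein-coding genes had. The 39 Hox genes, which set axial identity, had 0 peaks of either genome, which allows a share of up to 7.69%. In the shortest group of protein-coding genes, to which their median of 3.74 kb belongs, 4.67% had a maternal and 11.8% a paternal peak. In the lists of Ezh2m-/p+ zygotes, 4 Hox genes had a maternal and 1 a paternal peak. Of 69 Wnt, Fgf and Bmp ligand and receptor genes, 34.8% (24.6 to 46.6%) had a paternal and 23.2% (14.8 to 34.4%) a maternal peak, led by Wnt4 (10 paternal), Wnt5b (2 maternal, 8 paternal) and Fzd8 (7 paternal). With lists of equal size the maternal share was the higher one for these signalling genes (23.2% and 20.3%) and for the other developmental transcription factors (22.9% and 15.2%).

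Axon guidance, glutamate and GABA receptor, sodium and calcium channel, collagen and integrin genes had shares above those of all protein-coding genes in both lists, but these are long genes, with class medians of 44.0 to 160 kb, and some intervals reach the share of all genes. Among the longest group of protein-coding genes, 33.0% had a maternal and 35.3% a paternal peak, and in the next-longest group, to which the median of 44.0 kb of axon guidance genes belongs, 16.3% and 21.1%. Of 67 axon guidance genes, 37.3% (26.7 to 49.3%) had a paternal and 22.4% (14.1 to 33.7%) a maternal peak, with 26 paternal peaks at Ephb2, 17 at Plxna2 and 13 at Epha4, which had 1 maternal peak. The paternal share of axon guidance genes was lower than the maternal one with lists of equal size (16.4% and 22.4%) and with peaks over 2000 bp only (13.4% and 17.9%). Of 46 glutamate and GABA receptor genes, 30.4% (19.1 to 44.8%) had a paternal and 23.9% (13.9 to 37.9%) a maternal peak, with 4 peaks of each genome at Gria1. With peaks over 2000 bp only, their paternal share was 6.52%, 0.665 times that of all protein-coding genes. Of 20 sodium and calcium channel genes, 8 had a paternal and 6 a maternal peak, and Cacna1c had 8 maternal and 2 paternal peaks. With peaks over 2000 bp only, 30% of these channel genes had a maternal and 20% a paternal peak, and with lists of equal size 6 had each. Of 75 collagens and integrins, 34.7% (24.9 to 45.9%) had a paternal and 28.0% (19.1 to 39.0%) a maternal peak, with 28 paternal peaks at Col11a1. With lists of equal size the maternal share was the higher one for glutamate and GABA receptors (23.9% and 15.2%) and for collagens and integrins (28.0% and 18.7%).

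Ribosomal, mitochondrial and histone genes had shares below those of all protein-coding genes in both lists, and they are short, with class medians of 0.502 to 7.72 kb. In the shortest group of protein-coding genes, 4.67% had a maternal and 11.8% a paternal peak, and in the next-shortest group 7.81% and 15.6%. Cytosolic ribosomal proteins had maternal peaks in 6 (7.41%, 3.44 to 15.2%) and paternal peaks in 11 (13.6%, 7.76 to 22.7%) of 81 genes, the mitochondrial ribosome and complex I in 11 (8.87%, 5.03 to 15.2%) and 22 (17.7%, 12 to 25.4%) of 124, and histone genes in 4 and 8 of 101. H2ab1 and H2ab2 on chromosome X held 31 and 10 of the 49 paternal peaks at histone genes. Oocyte and maternal-effect genes had a maternal peak in 1 of 35 (Ago2) and a paternal peak in 5 (14.3%, 6.26 to 29.4%), namely Kit and Zp2 with 5 each, Npm2 and Sohlh2 with 3 each and Padi6 with 1. The paternal share of oocyte genes was 0.704 times that of all protein-coding genes, but 1.46 times with peaks over 2000 bp only and 1.07 times with lists of equal size. The 27 genes listed for zygotic genome activation had 0 peaks of either genome, which allows a share of up to 11.1%. Their median length of 4.51 kb lies in the next-shortest group, with its 7.81% maternal and 15.6% paternal. Spermatogenesis genes had maternal peaks in 6 (15.4%) and paternal peaks in 7 (17.9%) of 39, and interleukins and chemokines in 10 (15.6%) and 11 (17.2%) of 64, with 11 paternal peaks at Il1b, next to 14.6% and 20.3% of all protein-coding genes. Serpins and defensins had them in 8 (5.93%) and 16 (11.9%) of 135.

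Imprinted genes, expressed from a single parental allele, were compared by the allele they are expressed from. Maternally expressed genes had a maternal peak in 6 and a paternal peak in 5 of 21, but with folds over 10 only in 0 and 5, with lists of equal size in 6 and 1 and with peaks over 2000 bp only in 5 and 1. Grb10 had 3 maternal and 2 paternal peaks, Atp10a 1 and 2, and Phlda2, Copg2 and Ppp1r9a 1 maternal peak each. Of the 21 genes, 4 had maternal peaks only, 3 paternal peaks only and 2 peaks of both genomes. Paternally expressed genes had a maternal peak in 4 and a paternal peak in 5 of 24, with 1 maternal peak at Mest and Dio3 and 4 paternal peaks at Ins2, 1 at Plagl1 and 1 at Snrpn. Of these 24 genes, 2 had maternal peaks only, 3 paternal peaks only and 2 peaks of both genomes. Their order turned with lists of equal size and with peaks over 2000 bp only (16.7% maternal, 8.33% paternal in each). Of 5 genes known to be imprinted by maternal H3K27me3, Sfmbt2 had 2 maternal peaks and Gab1 2 maternal and 1 paternal, and the other 3 had none. The lncRNA gene Airn had 1 maternal peak, and Peg13 had 2 maternal and 4 paternal peaks. The intervals of these small classes overlap throughout.

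Genes of the PRC2 pathway and of other chromatin enzymes had shares whose intervals hold those of all protein-coding genes, 14.6% maternal and 20.3% paternal. Of 32 genes of Polycomb complexes, 8 (25.0%, 13.3 to 42.1%) had a maternal and 9 (28.1%, 15.6 to 45.4%) a paternal peak, among them Suz12, a PRC2 core subunit, with 1 of each, Ezh1 with 1 maternal and Jarid2 with 3 paternal peaks. Kdm2b had 2 maternal and 5 paternal peaks. The order of the Polycomb shares turned with peaks over 2000 bp only (21.9% maternal, 12.5% paternal), with lists of equal size (25.0% and 12.5%) and without distal intergenic peaks (21.9% and 9.38%), and with folds over 10 only the shares were 6.25% and 25.0%. Of 46 other chromatin regulators, 8 (17.4%, 9.09 to 30.7%) had a maternal and 5 (10.9%, 4.73 to 23.0%) a paternal peak. Hdac9 had 25 paternal and 2 maternal peaks, Dnmt3b and Tet2 2 maternal peaks each and the demethylase gene Kdm1a 5 paternal peaks.

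The sets were looked up in the lists of Ezh2m-/p+ zygotes, where 21.1% of protein-coding genes had a maternal and 23.8% a paternal peak. Of the 2300 protein-coding genes with maternal peaks only, 55.3% (53.3 to 57.3%) had a maternal peak there and 7.04% (6.07 to 8.16%) a paternal one. Of the 3528 with paternal peaks only, 85.8% (84.6 to 86.9%) had a paternal peak there and 17.4% (16.2 to 18.7%) a maternal one. Genes with peaks of both had them in 64.4% and 91.0%, and genes with neither in 14.2% and 7.85%. Rabgap1l had 95 paternal peaks here and 89 in the mutant list, Nap1l3 77 and 119, and Ptprd 89 and 155, and none of the 3 had a maternal peak in either genotype. Hao1 had 15 and 13 maternal peaks and Ptprg 9 and 20, with 0 paternal peaks in both genotypes.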

How the data were processed

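Reads were paired and 150 bp long. Per the study's methods, the authors trimmed adapters and weak bases (Trimmomatic 0.38), used Bowtie2 for alignment to mm10, required a mapping quality over 30, took out duplicates and sorted reads by strain, C57BL/6 or PWK, using SNPsplit. Only reads over a strain variant can be split, so regions poor in variants can hold no peak. SICER was run for the maternal and the paternal reads separately, with the input as control, a window of 200 bp, a gap of 600 bp and a q-value of 1e-05. The stated limits were a length over 1000 bp and a fold over 5. By their listed coordinates the shortest peaks were 999 bp, 98 maternal and 2353 paternal. ChIPseeker named their category and gene. The fold in the deposited lists is a ratio of scaled H3K27me2 and input reads. The deposited coverage gives, per chromosome, the fraction under reads of a parental genome, printed here in percent. Read numbers per genome were not given in the sources used here, so depth is known only through this coverage.

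Each peak was counted for the gene identifier deposited with it, the nearest transcription start. That is often not the gene the peak lies in: 19.5% of maternal and 19.0% of paternal peaks annotated to an intron or exon lay in another gene. Symbols, biotypes and lengths came from RefSeq on GRCm38.p6, where 7819 of 7827 identifiers matched (99.9%). GC content, CpG and repeats were read from that genome. Classes were lists of symbols and held protein-coding genes of chromosomes 1 to 19 and X. Gene lengths were divided into 5 equal groups. The genes named were, in each set, the 8 with the most peaks and, for single-genome sets, the 5 of largest fold, the 5 strongest promoter peaks, genes with overlapping peaks, and leading members of each class (some items are not reported here); other class members were added after their values were seen. The limit for a count of 0 was taken as 3 of the class. The members and lists were chosen with earlier results of these data known. Alternatives were folds over 10, peaks over 2000 bp, lists of equal size, no distal intergenic peaks, promoter peaks only, genes overlapped by the peak, and autosomes. A comparison of promoter sequences was void, since under 80% of the genes of 3 sets had one. Python 3.11.15, numpy 2.4.6, pandas 2.3.3, statsmodels 0.14.6 and matplotlib 3.10.9 were used, and the scripts were tested on simulated data.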

Additional observations from a re-analysis of the deposited data

Results flagged for a closer look

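In 7 classes of at least 20 genes the order of the maternal and paternal shares was opposite in the 2 genotypes. The difference was not tested, with 1 library per genotype, and the lists differ in size. The maternal minus the paternal share went from -10.0 points in Ezh2m+/p+ to 20 points in Ezh2m-/p+ zygotes for sodium and calcium channels (a change of -30.0 points when Ezh2m-/p+ is subtracted from Ezh2m+/p+), and from -6.67 to 14.7 points for collagens and integrins (-21.3). For receptors named Gpr it went from 12.9 to -2.86 points (15.7) and for maternally expressed imprinted genes from 4.76 to -9.52 points (14.3). Smaller changes were found for histone genes (-3.96 and 2.97 points, -6.93), other developmental transcription factors (-5.71 and 0.952 points, -6.67) and interleukins and chemokines (-1.56 and 3.13 points, -4.69).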

How the results depend on the processing

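With folds over 10 only, 1326 genes had maternal peaks only and 512 peaks of both, with means of 1.26 maternal and 3.15 paternal peaks per gene and median GC contents of 45.4% and 44.3%. With peaks over 2000 bp only, 2086 genes had paternal peaks only and 403 peaks of both; 13.2% of maternal-peak genes also had a paternal peak, the means were 1.48 and 2.63, and the GC medians 45.1% and 45.0%. With lists of equal size, 2148 genes had paternal peaks only and 578 peaks of both, the share was 15.7%, the paternal mean 2.11 and the paternal GC median 44.3%. Without distal intergenic peaks, 574 genes had peaks of both, the share was 21.8%, the means 1.44 and 2.71, and the GC medians 45.8% and 45.5%. With promoter peaks only, the sets held 798, 2048 and 55 genes, the share was 6.45% and the means 1.06 and 1.47. Counting every gene that a peak overlapped gave 534 genes with peaks of both, a share of 18.6% and means of 1.43 and 2.44. On autosomes the paternal GC median was 44.8%. Over these alternatives the share of maternal-peak genes with a paternal peak ran from 6.45% to 27.9%; the causes were not tested. The paternal mean stayed above the maternal mean and the maternal GC median above the paternal one in each alternative that gave them, whereas among promoter peaks within 1 kb the paternal GC median was the higher one (47.9% maternal, 49.1% paternal). The other 17 values stayed within 1.5 times (counts) or within the interval of the value reported, as did 149 of 232 class shares.

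No paired analysis was possible because each genotype had 1 library and no result came from a test. Paternal coverage was low (a median of 2.18%, against 25.0% maternal) and reads without a strain variant could not be split, so a gene without a peak was not shown to lack H3K27me2.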
